A study of Equus caballus with 4 samples.

Results

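The small heat shock proteins CRYAB, HSPB1, HSPB2, HSPB3, HSPB6, HSPB7 and HSPB8 and the co-chaperone BAG3 were followed in differentiating horse muscle cells. Members were all gene probes whose name in the array annotation was exactly 1 of these symbols, which gave 16 probes for 8 genes, of 43603 gene probes for 13730 gene names on the array. The cells were satellite cells, the stem cells of skeletal muscle, isolated from m. semitendinosus of young stallions. Per the study's methods, 1 primary cell line was chosen for the experiment, so the arrays describe cultures and not a sample of horses. In the treated group, cells on day 3 of differentiation had been given gamma-oryzanol (GO, a mixture of ferulic acid esters of plant sterols from rice bran) at 0.125 µM for 24 h, with hydrogen peroxide (H2O2) at 3 mM during the last 1 h. The control cells were at the same day of differentiation and had no GO. Whether they received H2O2 is not in the labels, but the study's text describes the control as exposed to it. By that text a ratio stands for GO against no GO, with H2O2 on both sides. Below, the words GO and H2O2 name the treated sample and not a contrast with cells that lack H2O2. On each of 4 arrays of 1 slide, treated RNA was labelled red (Cy5) and control RNA green (Cy3). As no array had swapped dyes, dye and treatment cannot be told apart, and the number of arrays limits the precision. The descriptions call the 4 treated samples biological replicates but name the same control replicate for all 4, while the design text gives 4 control replicates. If the controls were 1 RNA, their spread is not in the errors.

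Small heat shock proteins are chaperones that hold unfolding proteins in a soluble state without using ATP, and they assemble into large and mixed oligomers. In muscle they are bound to the cytoskeleton and the sarcomere, and several of them are made in greater amount as myoblasts become myotubes. BAG3 binds HSPB8 on one side and HSP70 on the other. Together with the ubiquitin ligase STUB1 it carries damaged filamin and other clients to autophagy, a route known as chaperone-assisted selective autophagy. Many heat shock genes, BAG3 among them, are targets of the transcription factor HSF1.

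The signal of a gene rests on the 60-base probes that were printed on the array, and the probes below are shown because they decide which part of a transcript was read and how many measurements of a gene are separate. Positions are in EquCab1, the build named in the file headers. Whether a probe lies in an exon or a UTR was not worked out, as a gene annotation for EquCab1 was not used here. CRYAB had 5 probes that lay within chr7:17113785-17113852 on the minus strand and shared 52 bases, so they are repeated readings of 1 site. From this common part, 30 bases are shown. The HSPB2 probe lay on the plus strand of the same chromosome (chr7:17119180-17119239), with 5327 bases between it and the CRYAB probes, and its capitals mark AATAAA, the usual polyadenylation signal. In a RefSeq table of a newer horse assembly (TB-T2T), HSPB2 was the next protein-coding gene after CRYAB and the 2 gene bodies overlapped. The HSPB1 probe was placed on unassigned sequence (chrUn:174332287-174332346, minus strand). None of these 3 genes had a probe with a reading frame open over its whole length.
CRYAB, part shared by all 5 probes: aacaagaaagtttccccaccagtgaatgaa
HSPB2, part of the probe: ctgggtggagctgAATAAAcccaaatctca
HSPB1, part of the probe: gaccatccccacctgccagcctgtatactc

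The other probes had at least 1 open reading frame. HSPB3 also had 5 overlapping probes (chr21:13575049-13575125, minus strand) with 43 bases in common. Of these, A_69_P002214 and A_69_P002215 are shown because they were shifted by 1 base and came out on different sides of the test. Capitals mark the 59 bases that they share. In the HSPB7 probe (chr2:35083029-35083088, plus strand) the capitals mark a stop codon at its end. The HSPB8 probe covered 5380 bases of the minus strand (chr8:14466373-14471752) with 60 bases of sequence, so it joined parts that are separated in the genome. HSPB6 was read at chr10:6954541-6954600 and BAG3 at chr1:12155398-12155457, both on the minus strand.
HSPB3, A_69_P002214: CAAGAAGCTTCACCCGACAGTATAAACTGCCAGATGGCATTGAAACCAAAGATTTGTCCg
HSPB3, A_69_P002215: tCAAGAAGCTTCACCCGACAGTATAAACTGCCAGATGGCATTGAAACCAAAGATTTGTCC
HSPB6, A_69_P045571: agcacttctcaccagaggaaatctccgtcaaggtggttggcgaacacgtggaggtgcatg
HSPB7, A_69_P087371: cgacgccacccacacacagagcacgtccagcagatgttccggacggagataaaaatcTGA
HSPB8, A_69_P065156: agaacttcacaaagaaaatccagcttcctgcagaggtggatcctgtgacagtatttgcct
BAG3, A_69_P094121: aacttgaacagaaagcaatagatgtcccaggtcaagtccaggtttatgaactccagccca

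All 16 probes were flagged by Agilent's software as well above background on the 4 arrays in both channels, and 0 were saturated. The signals of HSPB3, HSPB6 and HSPB7 were nonetheless close to background. CRYAB, HSPB2, HSPB6 and HSPB8 were higher with GO and H2O2, by 1.21 to 1.31-fold, in signals that ranged from dim to very bright. HSPB3 was higher with some of its probes. HSPB1, HSPB7 and BAG3 did not pass the test. Values below are log2 ratios of red over green after background correction (normexp) and loess normalisation, positive when the signal was higher with GO and H2O2, with the SD over n = 4 arrays. Each was tested with limma against 0, with Benjamini-Hochberg adjustment over the 24230 tested probes and a threshold of 0.05. Of the 16 probes, 10 passed as higher and 0 as lower, beside 9.49% of all tested probes passing as higher, 7.59% as lower and 17.1% in either direction. The same 10 probes were above 0 on all 4 arrays. Over all tested probes 43.8% had 1 sign on every array. Counted by the brightest probe of each gene, 4 of 8 genes passed. A further fold change of 1.3, the limit in the study's methods, was reached by 2 CRYAB probes and by HSPB6, beside 1.13% of all tested probes that passed as higher with this limit and 1.42% in either direction. The study's own list of genes was reported with a lower fold limit.

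Single arrays and the choice of normalisation decided these calls. Leaving out replicate 1, replicate 3 or replicate 4 left 0 member probes past the threshold, whereas 11 passed when replicate 2 was left out. Unadjusted limma p-values under 0.05 were found for 10, 11 and 10 of the 16 probes in the first 3 fits and for 13 in the last. The adjusted p-values of CRYAB reached 0.0943 in these fits and those of HSPB8 reached 0.0820. With each array centred on its median in place of loess, 0 member probes passed and 8 had an unadjusted limma p-value under 0.05. Over the whole array 2, 38 and 0 probes passed when replicate 1, 3 or 4 was left out, 3899 when replicate 2 was, and 12 with median centring, all of them higher, against 2299 higher and 1838 lower with loess. The correlation of log2 ratios between pairs of arrays, across probes, was between 0.174 and 0.697, lowest for replicates 2 and 3.

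**Figure D1:**
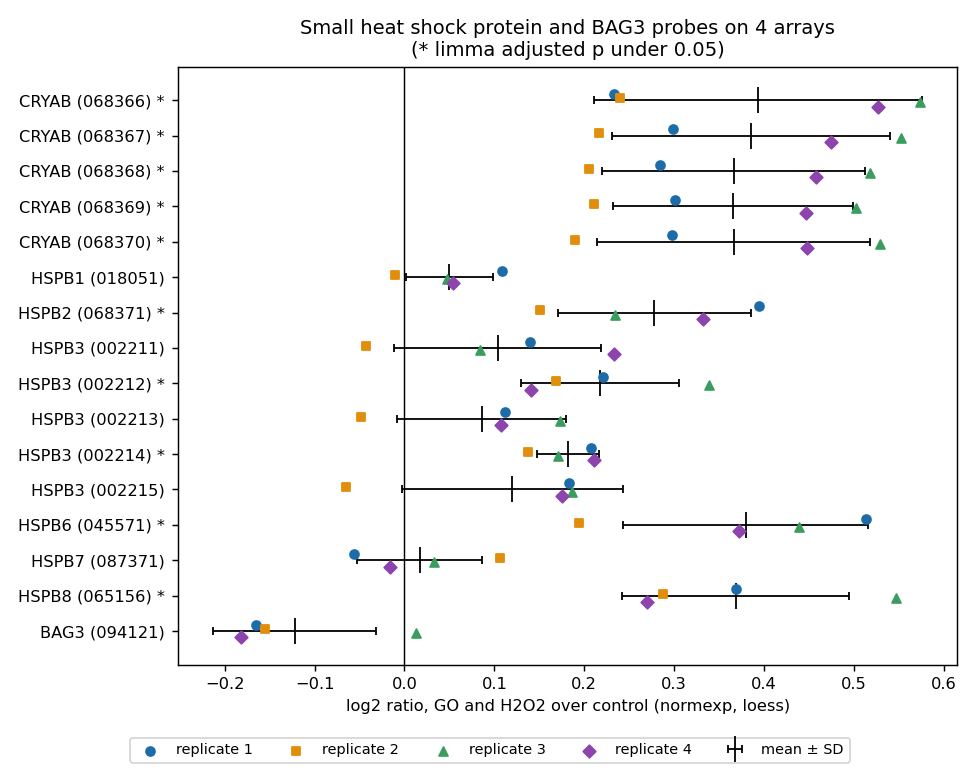
Log2 ratio of each of the 16 probes on the 4 arrays (x axis, GO and H2O2 over control, after normexp and loess), with 1 symbol per replicate and a bar for the mean ± SD. The last 6 digits of each probe name are in parentheses and a star marks a limma adjusted p under 0.05. All points of CRYAB, HSPB2, HSPB6 and HSPB8 lie above 0, while 3 of 4 points of BAG3 lie below 0.

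CRYAB (alpha B-crystallin) is a chaperone of desmin filaments and of the Z-disc. Its brightest probe, A_69_P068367, had scanned red signals of 74763, 60983, 54077 and 53374 on replicates 1 to 4 and green signals of 43102, 35200, 27762 and 29303. In these scanned signals, before the dyes were normalised, red exceeded green on every array and the 2 ranges did not overlap. The log2 ratios were 0.30, 0.22, 0.55 and 0.47, with a mean of 0.39 ± 0.15 (SD, n = 4). Replicates 3 and 4 were thus clearly above replicates 1 and 2, and every array was above 0. The 5 probes gave means between 0.37 and 0.39, fold changes of 1.29 to 1.31, and limma adjusted p-values from 0.0184 to 0.0221. On replicate 2 they ranged from 0.19 to 0.24 and on replicate 3 from 0.50 to 0.57, so that the arrays differed more than the probes did. With Agilent's processed signals, which had their own dye normalisation, probe A_69_P068366 did not pass (mean log2 ratio 0.31, limma adjusted p = 0.0505).

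HSPB2, which binds the myotonic dystrophy protein kinase and forms complexes with HSPB3, gave the brightest scanned signals of the group. Red signals were 96947, 76417, 69858 and 71559 and green signals 51495, 45495, 44149 and 42479. Again the ranges did not overlap, but scanned signals still hold the difference between dyes, with raw log2 ratios of 0.66 to 0.91. After normalisation the lowest red value (log2 15.87) lay only just above the highest green value (15.85). The HSPB2 log2 ratios of 0.40, 0.15, 0.23 and 0.33 had a mean of 0.28 ± 0.11 (limma adjusted p = 0.0228), a fold change of 1.21. The highest array for HSPB2 was replicate 1, not replicate 3 as for CRYAB. The difference between the log2 ratios of CRYAB and HSPB2 was −0.10, 0.07, 0.32 and 0.14 on the 4 arrays. These 2 neighbouring genes were not told apart in their change (mean 0.11 ± 0.17, exact two-sided permutation p = 0.375, the smallest that 4 arrays allow being 0.125).

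HSPB1 (HSP27), a regulator of actin filaments, was read in the same range of signal as CRYAB, and its ratio was near 0. Its red signals of 60355, 48465, 44053 and 39800 stood above the green signals of 40085, 33014, 32117 and 29518 within each array, which left raw log2 ratios of 0.59, 0.55, 0.46 and 0.43. After loess, which compares each probe with others of like brightness, they were 0.11, −0.01, 0.05 and 0.05. The mean was 0.05 ± 0.05 (limma adjusted p = 0.398), with a 95% confidence interval from −0.05 to 0.15. With median centring the mean was 0.21, also without passing (limma adjusted p = 0.792). The ratio of CRYAB exceeded that of HSPB1 by 0.19, 0.23, 0.50 and 0.42 on the 4 arrays, and by 0.20 to 0.51 with median centring. This difference had the same sign on 4 of 4 arrays and an exact two-sided permutation p of 0.125 (0.188 after Benjamini-Hochberg adjustment over the 3 pairs of members compared, which were chosen after their values were seen).

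**Figure D2:**
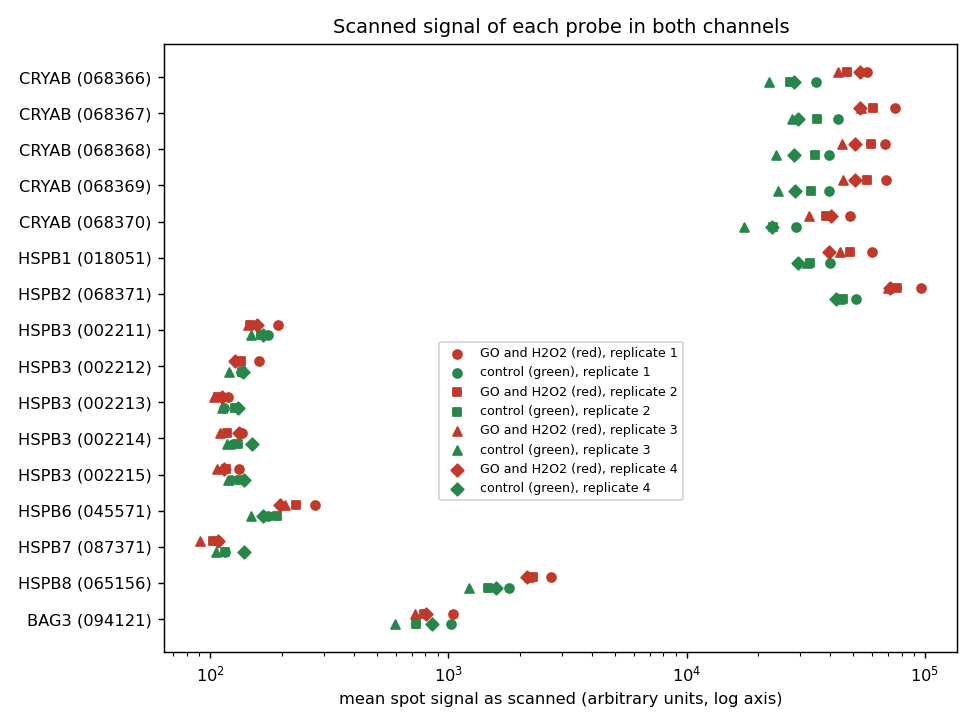
Mean spot signal as scanned (x axis, arbitrary units, log scale) of each probe with GO and H2O2 (red) and in the control (green), with 1 symbol shape per array. CRYAB, HSPB1 and HSPB2 lie at 17382 units or more in both channels, BAG3 and HSPB8 between 598 and 2708, and HSPB3, HSPB6 and HSPB7 at 276 or less. Signals of different probes are not comparable as amounts of RNA.

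The brightness of these 3 genes bears on their ratios. Raw log2 ratios of the CRYAB probes were 0.71 to 0.97, and loess took away much of this. Among all tested probes with a mean log2 signal from 15 to 16, the median log2 ratio after loess was 0.02 and 9.09% passed as higher. Above 16 the median was 0.14 and 36.5% passed as higher. Over the 669 probes at 15 or more, 25.7% passed as higher and 2.99% as lower. The CRYAB probes lay between 14.87 and 15.45, HSPB1 at 15.28 and HSPB2 at 15.87. When the median ratio of probes with like signal was subtracted as well (a running median over signal), the log2 ratio of the brightest CRYAB probe was 0.37 (limma adjusted p = 0.0242) and that of HSPB2 was 0.24 (limma adjusted p = 0.0304), in a setting where 8.3% of all tested probes passed as higher. With median centring HSPB2 had 0.47, which did not pass (limma adjusted p = 0.551), and CRYAB had 0.55 (limma adjusted p = 0.506).

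**Figure D3:**
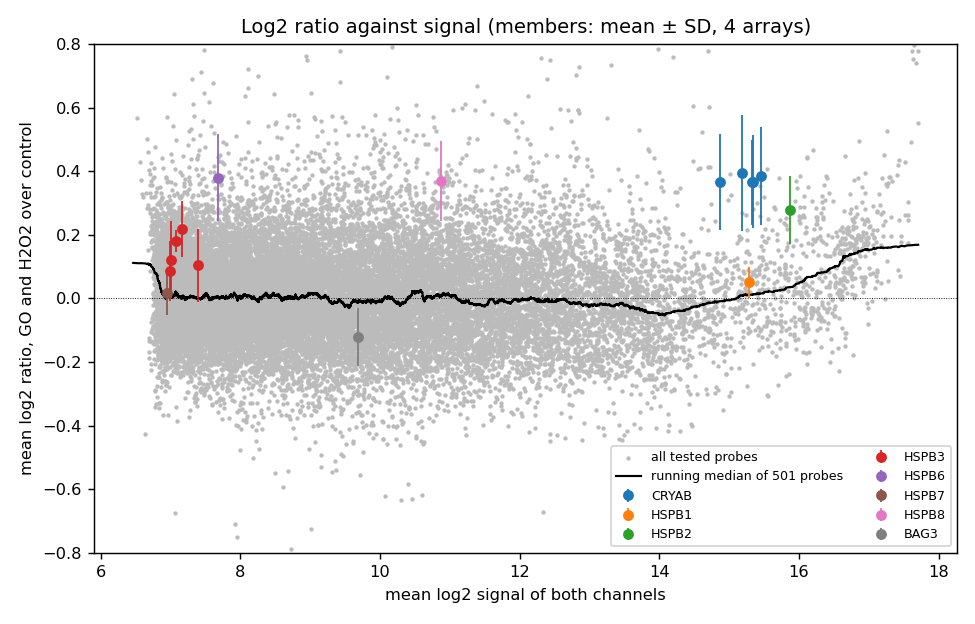
Mean log2 ratio (y axis, GO and H2O2 over control) against mean log2 signal of both channels (x axis) for the tested probes in grey, with a running median over signal in black and the members in colour with SD bars over 4 arrays. The y axis leaves out 57 of 24230 probes. CRYAB and HSPB2 lie above the running median, and HSPB1 lies close to it.

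HSPB8 (HSP22), the partner of BAG3 in clearing misfolded proteins, was measured at moderate signals. As scanned, they were 2708, 2259, 2171 and 2134 in red and 1797, 1466, 1218 and 1589 in green, with no overlap before normalisation. The log2 ratios were 0.37, 0.29, 0.55 and 0.27, and the mean was 0.37 ± 0.13 (limma adjusted p = 0.0175), a fold change of 1.29. Replicate 3 was the highest and the other 3 arrays lay close together. The processing changed the HSPB8 mean little, from 0.35 to 0.38 over the 12 alternatives that kept all arrays. However, with median centring replicate 1 had −0.04 and the call was lost (limma adjusted p = 0.651).

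BAG3 did not pass the test. Red signals were 1041, 793, 720 and 804 and green signals 1030, 732, 598 and 849, so the 2 channels overlapped. The log2 ratios were −0.17, −0.15, 0.01 and −0.18, that is, below 0 on 3 arrays and near 0 on replicate 3. The mean was −0.12 ± 0.09 (limma adjusted p = 0.116). Its 95% confidence interval, without adjustment, ran from −0.24 to −0.0089. The HSPB8 ratio exceeded the BAG3 ratio by 0.53, 0.44, 0.53 and 0.45, a mean of 0.49 ± 0.05. This was the most even difference among the pairs, with an exact two-sided permutation p of 0.125 (0.188 adjusted over the 3 pairs), and it was 0.48 to 0.52 with median centring.

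HSPB6 (HSP20), known for its role in smooth muscle relaxation, was dim. In the main fit HSPB6 had a mean ratio close to that of CRYAB. Its scanned signals were 276, 229, 207 and 197 in red and 174, 191, 148 and 166 in green. Every red value exceeded every green value before normalisation. The log2 ratios of 0.51, 0.19, 0.44 and 0.37 gave a mean of 0.38 ± 0.14 (limma adjusted p = 0.0179) with replicate 2 lowest. Its fold change was just above the limit of 1.3. The background correction added an offset of 50 units to the signals. With an offset of 0 and nothing else changed the mean was 0.50 (limma adjusted p = 0.0233). With Agilent's processed signals, in which the background correction and the dye normalisation differed as well, the HSPB6 ratios were 0.83, 0.20, 0.67 and 0.72, and the mean was 0.61 (limma adjusted p = 0.0337), in a setting where 8.05% of all tested probes passed as higher.

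HSPB3, a small member of the family that pairs with HSPB2, was read near the lower end of the scale. Signals of its 5 probes were between 104 and 192 in red and between 112 and 174 in green. Probes A_69_P002212 (mean log2 ratio 0.22 ± 0.09, limma adjusted p = 0.0306) and A_69_P002214 (0.18 ± 0.03, limma adjusted p = 0.0291) passed and were above 0 on all arrays after normalisation. Their raw log2 ratios were 0.25, −0.01, 0.15 and −0.10, and 0.14, −0.15, −0.10 and −0.18. The raw median of the arrays was also below 0, at −0.29 to −0.11. Without background correction A_69_P002214 had 0.13 and did not pass (limma adjusted p = 0.0894). The other 3 probes had means of 0.09 to 0.12 and did not pass, with limma adjusted p-values of 0.164 to 0.239. They differed from the first pair on replicate 2, where they were −0.04, −0.05 and −0.06, whereas A_69_P002212 had 0.17 and A_69_P002214 had 0.14. As the probes share most of their bases, the spread between them on a single array was as large as the change. Their mean as 1 value was 0.14 and did not pass (limma adjusted p = 0.0688). With Agilent's processed signals the probe A_69_P002212 had 0.46, A_69_P002214 had 0.33 and A_69_P002215 had 0.33, the last of which then passed (limma adjusted p = 0.0325).

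HSPB7, a filamin-binding member found in heart and skeletal muscle, had the dimmest signals. They were 108, 103, 90.9 and 108 in red and 115, 115, 106 and 139 in green, which overlapped. Its log2 ratios of −0.06, 0.11, 0.03 and −0.02 were on both sides of 0, and the mean was 0.02 ± 0.07 (limma adjusted p = 0.803). No direction can be given for HSPB7, since the mean was −0.09 with Agilent's processed signals (limma adjusted p = 0.327).

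In the main fit, the order of mean ratios by the brightest probe was CRYAB, HSPB6, HSPB8, HSPB2, HSPB3, HSPB1, HSPB7 and BAG3. The first 3 lay closer to each other than their SD in that fit, while HSPB2 overlapped with them from array to array. The order depended on the processing. HSPB6 exceeded CRYAB without background correction (0.45 against 0.38) and with normexp at offset 0 (0.50 against 0.38). With Agilent's processed signals HSPB6 had 0.61 and CRYAB 0.36. With median centring CRYAB had 0.55, HSPB2 0.47 and HSPB6 0.37. Replicate 2 had the lowest ratio for 4 of the 5 CRYAB probes, HSPB1, HSPB2, HSPB6 and 4 of the 5 HSPB3 probes, but not for HSPB7, HSPB8 or BAG3.

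**Figure D4:**
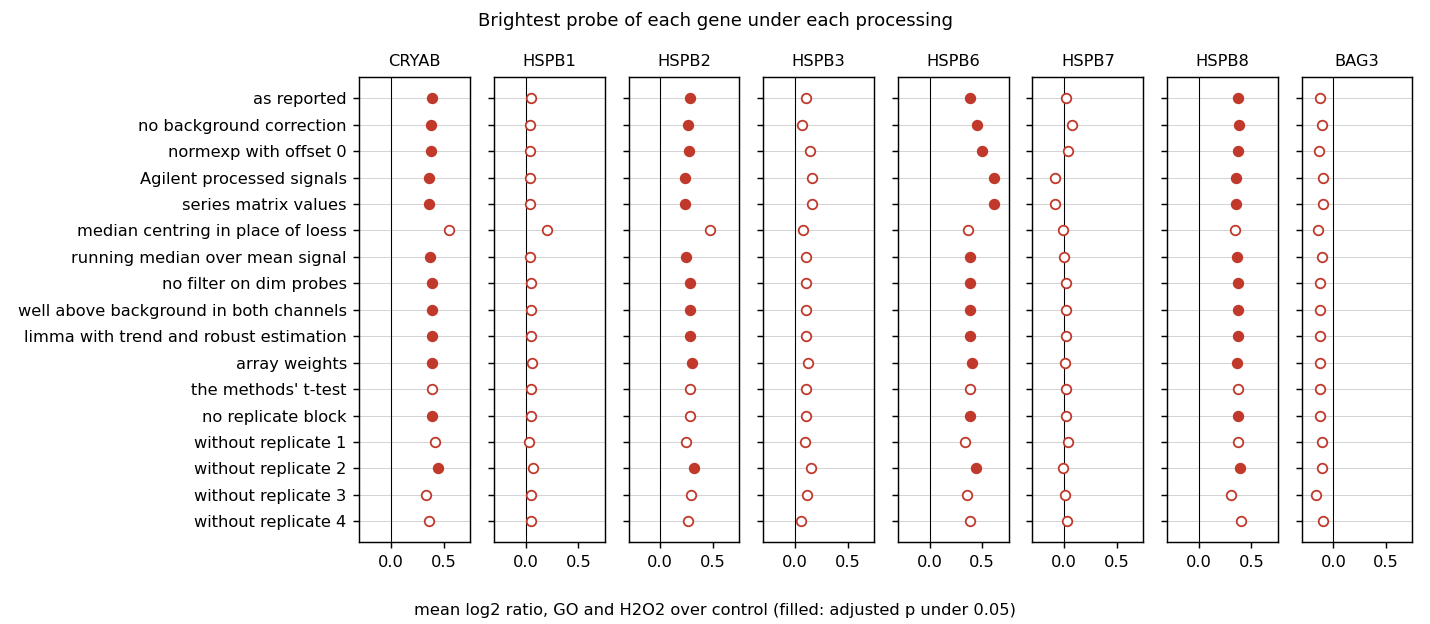
Mean log2 ratio (x axis) of the brightest probe of each gene under each processing (rows), filled where the limma adjusted p (or that of the methods' t-test) was under 0.05. CRYAB, HSPB2, HSPB6 and HSPB8 are above 0 in every row, but their symbols are open with median centring, with the methods' t-test and without replicate 1, 3 or 4, and that of HSPB2 also with the channels as unpaired groups.

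The other genes of the BAG3 route were next compared (1 probe per gene, the brightest tested). Of 12 listed genes, 11 were tested, of which 2 rose, 0 fell and 9 did not pass, with a median log2 ratio of 0.02. Over all tested probes 9.49% passed as higher and 7.59% as lower, with a median of 0.0030, and 17.1% passed in either direction, a share near that of the list. FLNC, which encodes the filamin that BAG3 clears from the Z-disc, had ratios of 0.45, 0.37, 0.50 and 0.32, a mean of 0.41 ± 0.08 (limma adjusted p = 0.0125). STUB1, the ubiquitin ligase of the complex, had 0.32, 0.13, 0.27 and 0.27 and a mean of 0.25 ± 0.08 (limma adjusted p = 0.0221). The autophagy receptor SQSTM1 had a mean of 0.13 (limma adjusted p = 0.0732), and SYNPO2, the adaptor between BAG3 and autophagosome membranes, had 0.12 (limma adjusted p = 0.0767). The HSP70 protein HSPA8 had −0.15 (limma adjusted p = 0.0588), and desmin (DES), a client of CRYAB, had 0.02 (limma adjusted p = 0.809). Of the other BAG genes 5 were tested. BAG1 was higher (0.20 ± 0.03, limma adjusted p = 0.0248) and BAG4 lower (−0.20 ± 0.07, limma adjusted p = 0.0306, and −0.08 with its other probe, which did not pass), while BAG2 (−0.13), BAG5 (0.00092) and BAG6 (0.06) did not pass. The remaining small heat shock protein genes on the array, CRYAA, HSPB9 and ODF1, did not reach the limit for testing in either channel.

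Heat shock genes outside the family were lower where they passed the test. Of 19 listed genes 15 were tested, and 0 rose, 4 fell and 11 did not pass, with a median log2 ratio of −0.14. Over all tested probes 7.59% passed as lower and 9.49% as higher, with a median of 0.0030. CHORDC1, an HSP90 co-chaperone, had −0.45 ± 0.13 (limma adjusted p = 0.0152). The stress-inducible HSP90AA1 had −0.30, −0.27, −0.25 and −0.31, a mean of −0.28 ± 0.03 (limma adjusted p = 0.0153). HSPH1, an HSP70 exchange factor, had −0.22 ± 0.04 (limma adjusted p = 0.0220), and the mitochondrial chaperonin HSPD1 had −0.19 ± 0.09 (limma adjusted p = 0.0431). The HSPD1 call rests on the brightest of its 2 tested probes, and the other had 0.03 (limma adjusted p = 0.738). HSPA4 did not pass (−0.14, limma adjusted p = 0.0548), and neither did the inducible HSP70 gene HSPA1A, at −0.16 (limma adjusted p = 0.131). The list shares HSPA8 and HSPA1A with the BAG3 route.

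**Figure D5:**
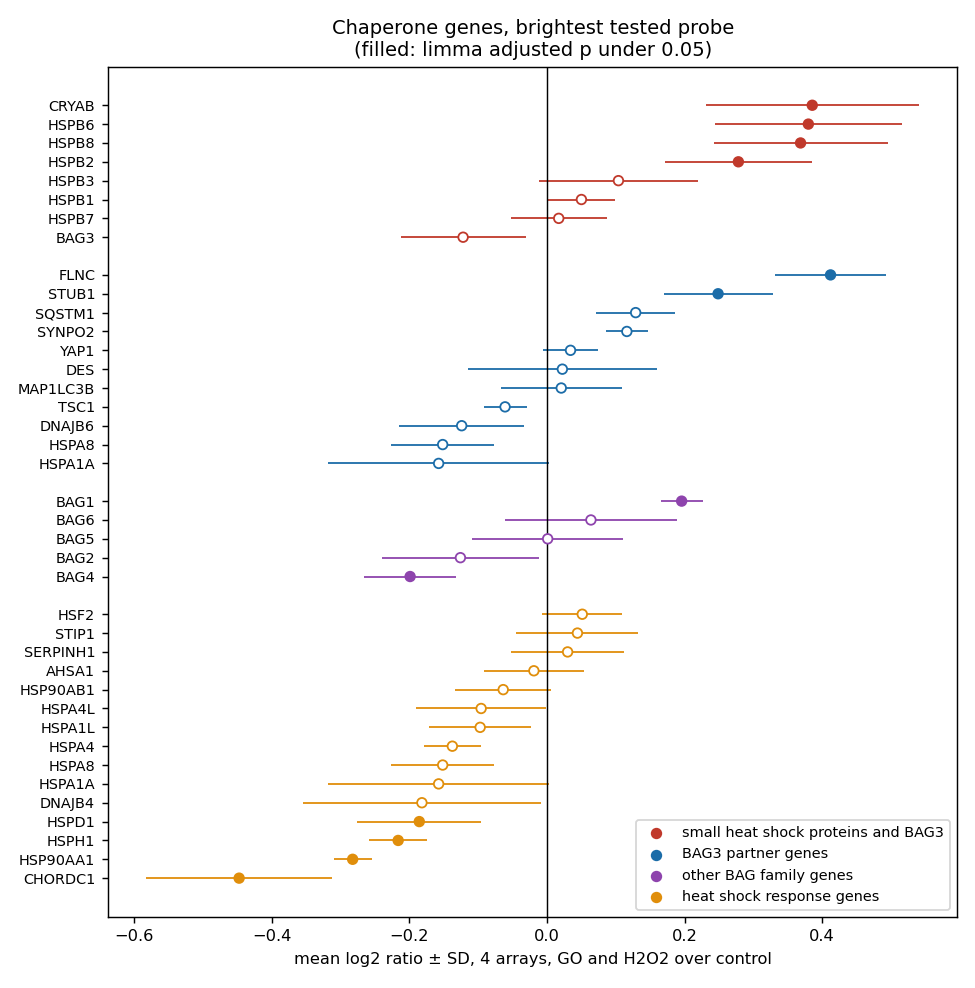
Mean log2 ratio ± SD over 4 arrays (x axis, GO and H2O2 over control) of the brightest tested probe of each gene, grouped by list and ordered by mean, with filled symbols for a limma adjusted p under 0.05. The 4 filled heat shock response genes lie between −0.45 and −0.19, and the 4 filled small heat shock protein genes between 0.28 and 0.39.

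Each member was set against HSP90AA1 on the same array, a difference in which array-wide shifts cancel. All 8 members had a higher ratio than HSP90AA1 on 4 of 4 arrays. HSP90AA1 was itself lower (mean −0.28), so a gene with a ratio near 0 exceeds it too, as HSPB7 did (mean 0.02). The share of all tested probes that exceed it was not worked out, so this count does not set the members apart. The mean difference was 0.67 ± 0.15 for CRYAB, 0.66 ± 0.15 for HSPB6, 0.65 ± 0.11 for HSPB8, 0.56 ± 0.13 for HSPB2 and 0.33 ± 0.07 for HSPB1. It was smallest for BAG3, at 0.16 ± 0.07. The exact two-sided permutation p was 0.125 for each, the smallest possible, and 0.154 after adjustment over 16 tests, so that 4 arrays could not pass the threshold in this test.

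Against MYL1, a myosin light chain of differentiating muscle (mean log2 ratio 0.40 ± 0.06, limma adjusted p = 0.0124), the differences varied between members. CRYAB (−0.01 ± 0.14), HSPB6 (−0.02 ± 0.11) and HSPB8 (−0.03 ± 0.07) differed from MYL1 by less than their spread, with exact permutation p-values of 1, 0.875 and 0.625. HSPB2 (−0.12), HSPB3 (−0.29), HSPB1 (−0.35), HSPB7 (−0.38) and BAG3 (−0.52) were below MYL1 on 4 of 4 arrays, each with the smallest exact p of 0.125. As MYL1 was itself higher, a gene with a ratio near 0 also falls below it. The share of all tested probes below MYL1 was not worked out, so this count restates the members' own means. In the list of myogenic genes 16 of 22 tested genes rose and 0 fell, with a median log2 ratio of 0.30, beside 9.49% of all tested probes passing as higher and a median of 0.0030. Of the 22 genes, 5 had a mean log2 signal of 15 or more, where 25.7% of all probes passed as higher, and 4 of these 5 rose. Among the other 17 genes 12 rose. The examples with the smallest p-values were ACTC1 (0.44 ± 0.07, limma adjusted p = 0.0114), MYL1, TNNT3 (0.44 ± 0.10, limma adjusted p = 0.0125), MYL4 (0.41 ± 0.08, limma adjusted p = 0.0125) and TNNI2 (0.56 ± 0.19, limma adjusted p = 0.0150). ACTC1 was among the brightest probes, and with the running median over signal it had 0.10 and did not pass (limma adjusted p = 0.208). In RNA from whole cultures, a different share of differentiated cells and a different amount of RNA per cell cannot be told apart.

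Cell type markers were examined for the labelled cells. Of 7 satellite cell and myoblast markers 5 were found by name and all 5 were above background, with MYOG (0.33) and NCAM1 (0.16) passing as higher; PAX7 and CDH15 were not found by name. Their summed red signal was 21399 to 32538 and the green 14852 to 25637 units. Of 4 fibroblast markers found, DCN was bright (−0.10, limma adjusted p = 0.127), THY1 was higher (0.28, limma adjusted p = 0.0290) and the others, PDGFRA and TCF21, were not above background on all arrays. The fibroblast sums were 35771 to 63266 in red and 28521 to 50302 in green. The myoblast and fibroblast sums each rest mostly on 1 bright probe, DES (red 15289 to 23207) and DCN (red 34948 to 62319). As sums of scanned signals, they cannot be compared between cell types as amounts of RNA. Red and green sums were not normalised between dyes. Endothelial markers (4, sums of 234 to 407 in both channels) and adipocyte markers (3, sums of 177 to 282) were at or near background. Of 3 leukocyte markers, CD3E and ITGAM were at background and CD68 was above it on all arrays. The leukocyte sums of 243 to 334 include CD68. The part of myogenic or fibroblast cells in the ratios of the small heat shock proteins was not tested.

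Among 8268 other genes with a tested probe, those whose 4 ratios lay closest to CRYAB were PTPN9 (root mean square difference 0.06), MATN2 (0.06) and ZNF362 (0.08), and those closest to HSPB8 were TBC1D5 (0.04), SPIRE2 (0.04) and CCR10 (0.05). SPIRE2 did not keep its ratio of 0.33, with 0.05 after the running median over signal (limma adjusted p = 0.543). With 4 arrays this likeness is a description of ratios only.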

How the data were processed

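Treated (red) and control (green) RNA was measured on 4 two-colour arrays. The authors deposited spot intensities per array, as Agilent's Feature Extraction software (10.10.1.1 in the file headers) read them, with processed intensities normalised between dyes and log10 ratios of red over green. The deposited series matrix holds the same log10 ratios (largest difference 0). Their log10 values were turned into log2 for 1 alternative.

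Mean intensities were corrected with normexp (offset 50) and normalised by loess within each array, and control spots and outlier spots were left out. A probe was tested when well above background on all 4 arrays in at least 1 channel (24230 of 43603). The mean log2 ratio was tested against 0 by a two-sided limma fit (limma 3.58.1, R 4.3.3), adjusted by Benjamini-Hochberg, at a threshold of 0.05. Differences between genes on the same array were tested with exact sign permutations.

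The members and gene lists were chosen with earlier results of these data known. Named genes were all member probes, up to 5 genes of each list with the smallest p-values, and any other list gene counted among 5 or fewer. HSP90AA1, MYL1 and the 3 genes closest to CRYAB and to HSPB8 were named as well. DES, HSPA1A and the cell type markers are also mentioned but were not chosen by this rule. Alternatives were no background correction, normexp with offset 0, Agilent's processed signals, the series matrix, median centring, a running median over signal, other filters on dim probes, trend and robust estimation, array weights, the methods' t-test (the study used Student's test), channels as unpaired groups, the mean over probes of a gene, and leaving out each array. Symbols were those of the array annotation. Its accessions matched a RefSeq gene of the same symbol for CRYAB, HSPB1, HSPB2, HSPB6, HSPB7 and HSPB8, whereas those of HSPB3 and BAG3 were not matched.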

Additional observations from a re-analysis of the deposited data

Results flagged for a closer look

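Of 42 sets of 4 array values examined (member probes and named genes), 3 had 1 array apart from the other 3 by more than Dixon's limit of 0.829, where chance gives about 1 in 20. For BAG3, replicate 3 had a log2 ratio of 0.0132 while the other arrays had −0.18 to −0.15, and without it the mean was −0.17. For the HSPB3 probe A_69_P002215, replicate 2 had −0.0647 while the others had 0.18 to 0.19. Without it the mean was 0.18 and passed (limma adjusted p = 0.0456). For SQSTM1, replicate 2 had 0.0436 while the others had 0.14 to 0.17.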

How the results depend on the processing

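The signs of CRYAB, HSPB1, HSPB2, HSPB3, HSPB6, HSPB8 and BAG3 were the same under all alternatives run. Counts at the threshold are given for all probes, all probes with a fold change of 1.3, member probes, BAG3 partner genes, heat shock response genes and myogenic genes, in this order. With median centring they were 12, 12, 0, 0, 0 and 0 with limma (1571, 643, 8, 1, 1 and 15 unadjusted), and with the methods' t-test 5, 1, 0, 0, 0 and 0 (6930, 289, 10, 6, 6 and 15 unadjusted). With the 2 channels as unpaired groups (no replicate block) they were 594, 210, 6, 1, 0 and 8. The count with a fold change of 1.3 was 660 with normexp at offset 0 and 1102 with Agilent's processed signals or the series matrix. Leaving out 1 array gave ranges of 0 to 3899, 0 to 694, 0 to 11, 0 to 2, 0 to 3 and 0 to 16. The other alternatives with all arrays gave 9 to 10 member probes. HSPB7 turned negative with Agilent's processed signals and the series matrix (−0.0891), with median centring (−0.0083), with the running median (−0.0018) and without replicate 2 (−0.0129), and leaving out 1 array it ranged up to 0.0412. HSPA8 was 0.0162 with median centring. BAG5 was −0.0027 without background correction, −0.0050 with offset 0, −0.0276 with Agilent's processed signals and the series matrix, −0.0199 with median centring, −0.00081 with the running median and between −0.0424 and 0.0334 without 1 array. HSPD1 passed in 5 of 12 alternatives with all arrays. The causes were not tested. HSPB3, HSPB6 and HSPB7 are limited by signals close to background.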
